A study of Mus musculus with 20 samples.

Results

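The 10 genes described here encode the FANCD2 and FANCI proteins of the ID complex, the 7 Fanconi core complex subunits FANCA, FANCB, FANCC, FANCE, FANCF, FANCG and FANCL, and the DNA translocase FANCM. They were taken by gene symbol from the deposited count matrix of mouse marrow RNA-seq, with the transcript row of the largest total kept for each symbol. All 10 were found among 20377 gene symbols on 26005 RefSeq transcript rows, and all 10 passed the filter on low counts in every comparison. The study asked how marrow cells of Fancd2 knockout mice respond to oxymetholone, a synthetic androgen used in Fanconi anemia.

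Male mice of the 129S4 background, 4 months old, were either Fancd2-/- or wild-type and had eaten chow with oxymetholone at 300 mg/kg diet or placebo chow for 3 months from weaning. KSL cells, the lineage-negative, Sca1+ and c-Kit+ fraction that holds hematopoietic stem and early progenitor cells, were sorted from all 4 combinations of genotype and diet, with 3 libraries each and 5 mice pooled per library. Ter119+ CD71high cells of high forward scatter, which are early erythroblasts, came from wild-type mice on each diet, with 3 libraries of 1 mouse each. Whole marrow of placebo-fed mice gave 1 library per genotype, each combining 5 mice. The labels give Fancd2-/- as the genotype of the whole animal, and erythroblasts were of wild-type mice only. Gene counts summed to between 10.8 and 121 M (mega) reads in the 12 KSL libraries, to 100.2 and 107 M reads in whole marrow and to between 17.2 and 20.8 M reads in erythroblasts. The 10 KSL marker genes fixed for this tissue summed to between 2170 and 3449 CPM (read counts scaled to library size) in KSL cells and to between 0.889 and 3.01 CPM in erythroblasts. The 10 erythroblast markers summed to between 43.4 and 209 CPM in KSL cells and to between 106030 and 126170 CPM in erythroblasts. Both sorts therefore carried their own markers. The KSL marker sum was lower in Fancd2-/- KSL libraries, between 2170 and 2891 CPM on placebo and between 2621 and 2798.5 CPM on oxymetholone. In wild-type KSL libraries it was between 3167 and 3449 CPM on placebo and between 3196 and 3268 CPM on oxymetholone. The part of this difference in the genotype comparisons was not tested. Neutrophil markers summed to between 355 and 1318 CPM in KSL cells against at least 117490 CPM in whole marrow.

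The Fanconi pathway removes covalent links between the strands of DNA when a replication fork meets them. FANCM finds the stalled fork and recruits the core complex, an E3 ubiquitin ligase whose catalytic subunit is FANCL. The core complex attaches ubiquitin to FANCD2 and FANCI, which then clamp the DNA and direct nucleases, translesion polymerases and homologous recombination to the lesion. Inherited loss of any of several of these genes causes Fanconi anemia, in which blood stem cells fail.

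Promoter sequences from RefSeq (build GRCm38.p6), which run from 250 bases before to 50 bases after the start of each gene, were matched for 9 of the 10 genes. Fancd2 had no entry. Of these, 5 are shown because they belong to the genes that differed most among cell types or that carried the motifs searched. Capitals mark the pentamer CCAAT (read as ATTGG on the other strand), the core of NF-Y sites, and the octamer TTTCCCGC, a form of the E2F site.
Fancl, chr11:26386834-26387133, plus strand: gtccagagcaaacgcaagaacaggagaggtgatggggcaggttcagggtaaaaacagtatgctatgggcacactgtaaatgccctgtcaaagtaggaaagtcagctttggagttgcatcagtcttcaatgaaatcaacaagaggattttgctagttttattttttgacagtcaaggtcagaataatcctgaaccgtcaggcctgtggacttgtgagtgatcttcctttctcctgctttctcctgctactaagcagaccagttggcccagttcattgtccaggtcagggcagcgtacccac
Fancm, chr12:65075353-65075652, plus strand: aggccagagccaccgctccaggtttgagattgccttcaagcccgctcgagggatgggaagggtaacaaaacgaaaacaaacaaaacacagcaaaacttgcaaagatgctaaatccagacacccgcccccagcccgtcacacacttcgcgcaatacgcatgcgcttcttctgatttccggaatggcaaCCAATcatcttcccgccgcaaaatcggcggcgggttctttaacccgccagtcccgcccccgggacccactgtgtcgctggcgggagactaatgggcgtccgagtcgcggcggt
Fancg, chr4:43010252-43010551, minus strand: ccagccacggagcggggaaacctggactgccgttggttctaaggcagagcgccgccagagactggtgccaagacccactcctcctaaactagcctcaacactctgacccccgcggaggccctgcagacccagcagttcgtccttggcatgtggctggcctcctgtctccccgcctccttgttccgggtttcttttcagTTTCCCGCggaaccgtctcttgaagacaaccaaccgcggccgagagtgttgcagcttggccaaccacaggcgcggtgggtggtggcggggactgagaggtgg
Fancf, chr7:51862218-51862517, minus strand: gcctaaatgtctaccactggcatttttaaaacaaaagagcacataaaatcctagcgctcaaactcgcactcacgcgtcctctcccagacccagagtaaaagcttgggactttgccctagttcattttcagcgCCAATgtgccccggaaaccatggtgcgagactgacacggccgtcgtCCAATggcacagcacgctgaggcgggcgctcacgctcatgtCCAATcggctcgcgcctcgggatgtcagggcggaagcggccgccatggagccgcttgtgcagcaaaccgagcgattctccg
Fance, chr17:28313280-28313579, plus strand: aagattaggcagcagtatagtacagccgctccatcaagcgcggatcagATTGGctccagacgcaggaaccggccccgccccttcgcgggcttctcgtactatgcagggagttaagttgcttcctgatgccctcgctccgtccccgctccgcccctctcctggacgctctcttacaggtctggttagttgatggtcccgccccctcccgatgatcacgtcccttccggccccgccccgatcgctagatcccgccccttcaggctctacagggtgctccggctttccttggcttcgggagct
CCAAT was present on either strand in 6 of the 9 promoters and in 37.4% of all 32851 promoters of this length. Fancf carried it at 3 positions, 118, 72 and 31 bases before the start, all on the strand of the gene. Fanca had 2 copies, and Fancm, Fancc, Fance and Fancb had 1 each. Of the 3 E2F octamers searched on both strands (TTTCGCGC, TTTGGCGC and TTTCCCGC), only Fancg had a match, 52 bases before its start, against 1.84% of all promoters with any of the 3. The hexamer TTTGAA, the cell cycle homology region, was in 17.9% of all promoters and in none of the 9 windows. The GATA factor hexamer AGATAA was in 11.2% of all promoters and likewise in none of the 9. The Fancl window stood apart in base composition, with 47.0% G and C and 3 CpG pairs, where the other 8 had between 55.3% and 63.3% G and C and between 13 and 26 CpG pairs.

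Fancd2 and Fanci are described first, since their products are the substrate of the pathway. Fancd2 lies on chr6:113481676-113546279 of build mm9 with 43 exons, and its level in the knockout checks the labels. Fancd2 stood at 5.82, 5.86 and 4.83 CPM in the 3 placebo-fed Fancd2-/- KSL libraries and at 12.3, 13.5 and 15.9 CPM in the placebo-fed wild-type ones. On oxymetholone it stood at 6.16, 4.69 and 4.76 CPM in Fancd2-/- and at 13.03, 14.5 and 16.5 CPM in wild-type KSL cells. Every Fancd2-/- library was below every wild-type library on each diet, with the lowest wild-type value 2.10 times the highest knockout value on placebo and 2.11 times on oxymetholone. The log2 difference was -1.30 ± 0.18 (SE, adjusted p = 0.0051) on placebo, -1.4975 ± 0.18 (adjusted p = 0.0053) on oxymetholone and -1.40 ± 0.13 (adjusted p = 8.1e-05) over both diets, by edgeR's quasi-likelihood test with Benjamini-Hochberg adjustment over all genes. The reads that remained amounted to 39.7% of the wild-type mean on placebo and 35.5% on oxymetholone. Counts cover the whole transcript, and where the allele interrupts the gene was not given in the sources used here, so the remaining level does not say which exons were still transcribed. The p-values measure the spread between these libraries.

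Whole marrow showed the same direction with 1 library per genotype and hence no test. Fancd2 was at 8.53 CPM in Fancd2-/- marrow and at 31.3 CPM in wild-type marrow, a ratio of 0.272 (95% exact interval for counting error only, 0.251 to 0.295). Wild-type marrow held 2.26 times the mean Fancd2 level of wild-type placebo-fed KSL cells with TMM scaling and 1.34 times with library totals. In bulk RNA, fewer cells of a type and less RNA per cell cannot be told apart. Erythroblasts held the most Fancd2 of the 3 populations. Placebo-fed mice gave 172, 187 and 185 CPM, and oxymetholone-fed mice gave 196, 199.7 and 186 CPM.

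**Figure D1:**
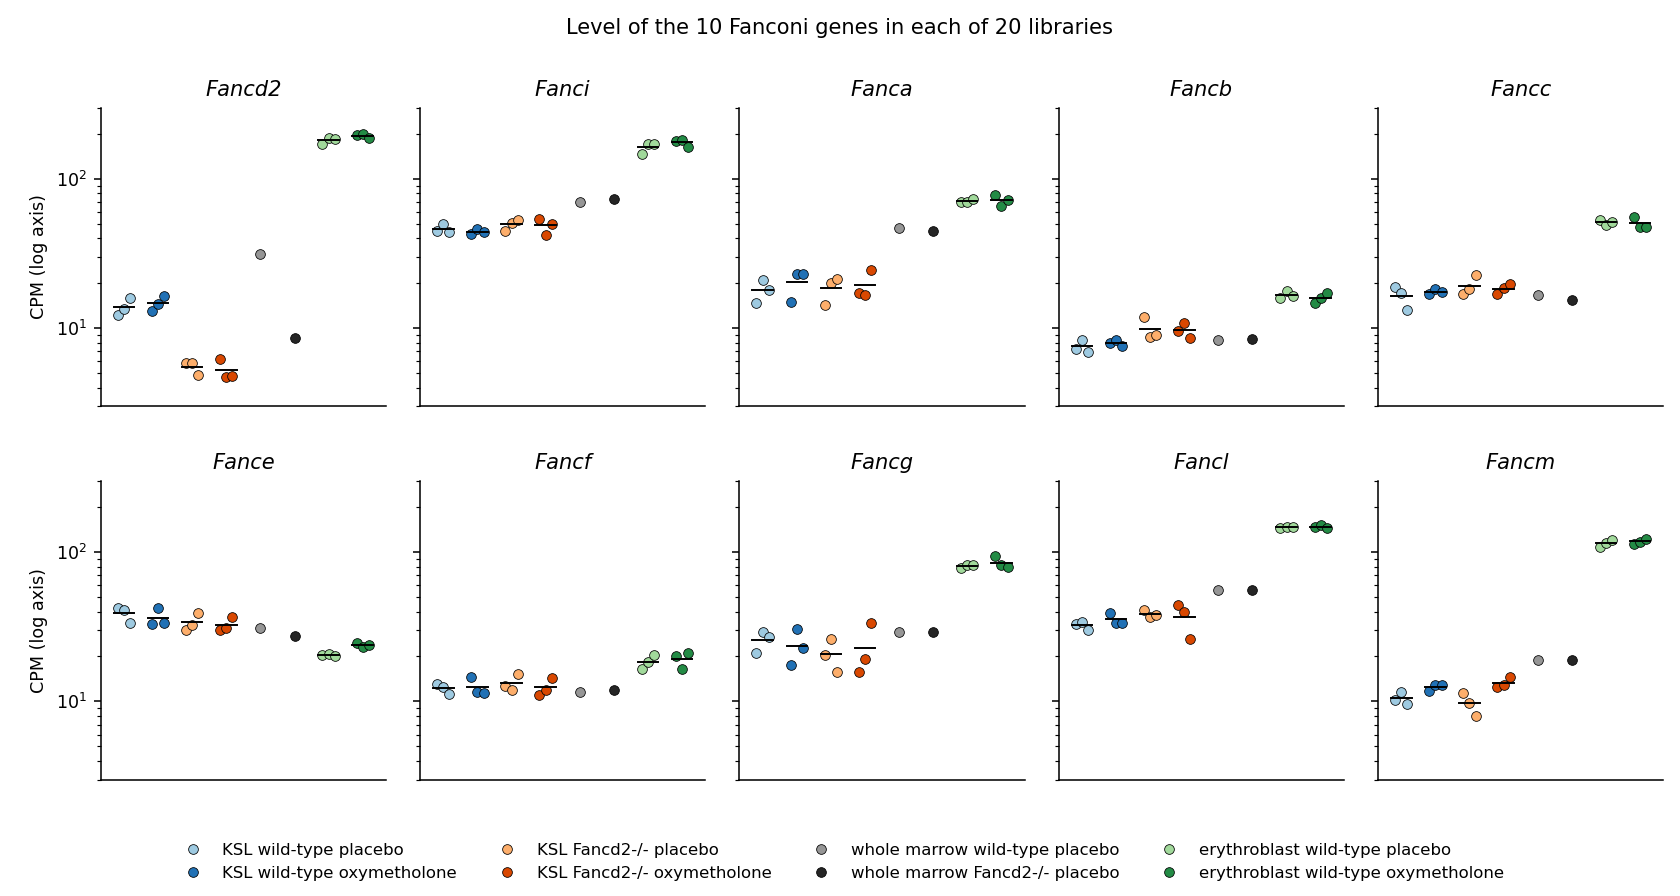
CPM of each of the 10 genes (log axis, TMM-scaled over all 20 libraries) with 1 point per library and a line at the mean of each group of 3. The knockout and wild-type KSL libraries separate for Fancd2 (lower) and Fancb (higher), and all genes but Fance are highest in erythroblasts.

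Fanci, the partner of FANCD2, lies on chr7:86537224-86595150 with 38 exons. It stood at 44.6, 50.7 and 53.3 CPM in placebo-fed Fancd2-/- KSL cells and at 44.6, 49.6 and 44.1 CPM in placebo-fed wild-type ones. On oxymetholone the values were 54.1, 42.0 and 49.8 CPM in Fancd2-/- and 42.5, 46.4 and 44.0 CPM in wild-type cells. The groups overlapped on both diets, and the genotype difference over both diets was 0.14 on the log2 scale (95% interval -0.05 to 0.33, adjusted p = 0.388, edgeR). In whole marrow Fanci was at 72.9 CPM in Fancd2-/- and 69.8 CPM in wild-type mice, a ratio of 1.04 (1.01 to 1.08, counting error only). Fanci exons overlap those of Polg on the opposite strand over 15.1% of the Fanci transcript, and whether counting used strand was not given in the sources used here.

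Within wild-type KSL cells, Fancd2 was the less abundant of the pair by transcript length as well, with a median of 2.95 CPM per kb of transcript against 9.61 for Fanci. In erythroblasts the medians were 39.4 CPM per kb for Fancd2 and 37.1 for Fanci, and their ranges over 6 libraries overlapped. The ratio of the pair therefore changed between the cell types without any choice of scaling entering it.

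Outside Fancd2, edgeR called no member between genotypes, while DESeq2 also called Fancb over both diets. In placebo-fed KSL cells 1 of 10 members was called (Fancd2, lower), against 1.28% of 13259 genes tested. In oxymetholone-fed KSL cells 1 of 10 was called, against 0.128% of all genes, and over both diets 1 of 10, against 3.71%. The last test treats the oxymetholone and placebo libraries of a pair as independent although each pair shared a cytometer setting. With the counts of each pair summed to 3 samples per genotype, an alternative added after the data were seen, Fancd2 was still called (-1.40 on the log2 scale, adjusted p = 0.0147, edgeR) and 0.385% of 13498 genes were. The median log2 difference of the 9 other members over both diets was 0.07, beside -0.01 for all genes.

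**Figure D2:**
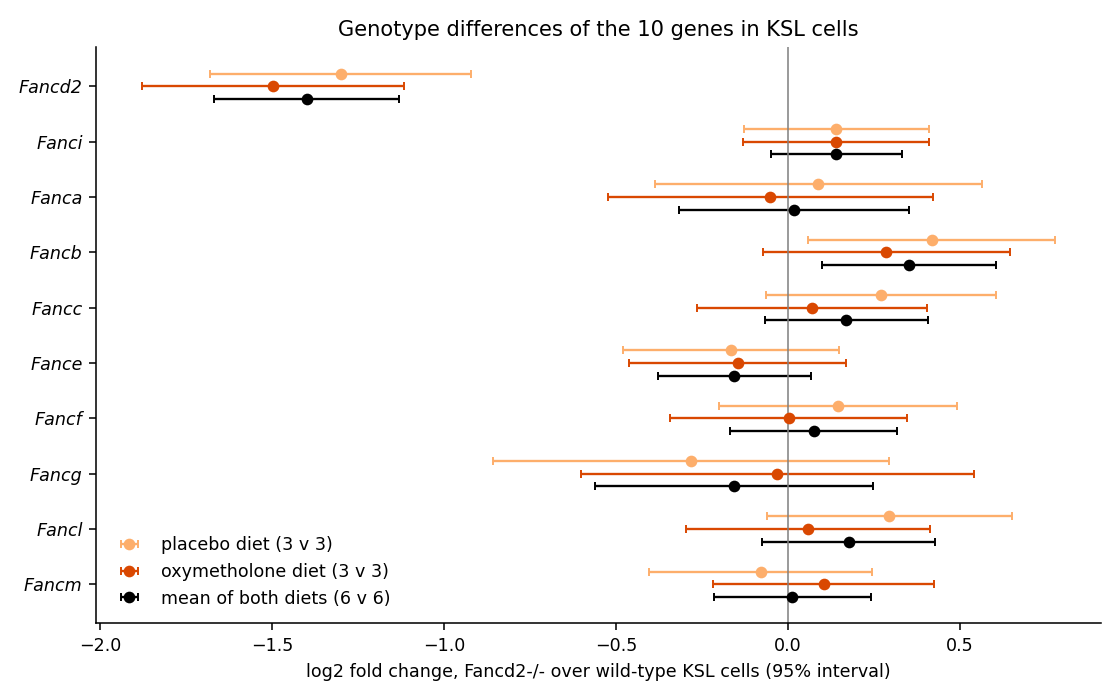
Log2 fold change of Fancd2-/- over wild-type KSL cells for the 10 genes with 95% intervals, on placebo, on oxymetholone and as the mean of both diets. The Fancd2 intervals lie between -1.88 and -0.92, and the Fancb interval of the mean runs from 0.10 to 0.61, while the intervals of the mean of the other 8 genes include 0.

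Fancb, whose protein holds FANCL and its associated protein FAAP100 together in the core complex, lies on the X chromosome (chrX:161418524-161435204, 9 exons). It stood at 11.9, 8.78 and 8.92 CPM in placebo-fed and at 9.63, 10.8 and 8.57 CPM in oxymetholone-fed Fancd2-/- KSL cells. In wild-type KSL cells the placebo values were 7.29, 8.37 and 6.94 CPM and the oxymetholone values 7.98, 8.33 and 7.55 CPM. All 6 Fancd2-/- libraries were above all 6 wild-type libraries, a separation that 1.49% of 11688 genes with a mean of at least 1 CPM showed in this direction, while 2.22% showed the opposite one, Fancd2 among them. The difference was 0.35 ± 0.12 on the log2 scale (95% interval 0.10 to 0.61), with an adjusted p of 0.114 by edgeR, so the gene was not called. DESeq2 called the same difference (adjusted p = 0.0456), limma voom did not, and edgeR's adjusted p ranged from 0.051 to 0.23 when single libraries were left out and was 0.356 with counts summed per pair. In whole marrow Fancb was at 8.51 and 8.31 CPM in Fancd2-/- and wild-type mice, a ratio of 1.02 (0.922 to 1.14).

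Genes of the cell cycle differed between genotypes on placebo. There 10 of 20 mitosis genes and 1 of 20 S phase genes were called higher in Fancd2-/- KSL cells. Of all genes 1.28% were called in either direction on that diet. On oxymetholone 0 of either list were called, beside 0.128% of all genes. At an unadjusted p under 0.05 (edgeR) there were 3 and 2, beside 738 of all 13259 genes. Over both diets the counts of called genes were 12 and 2, beside 3.71% of all genes in either direction. With counts summed per pair they were 1 and 0, beside 0.385% of all genes. The summed level of the 20 S phase genes was between 3251 and 4410 CPM in placebo-fed Fancd2-/- libraries and between 2834 and 3020 CPM in wild-type ones. On oxymetholone the S phase sums overlapped, from 3214 to 3531 CPM in Fancd2-/- and from 3181 to 3313 CPM in wild-type libraries. The mitosis sums did not overlap on either diet. How often sums of other genes separate 3 libraries from 3 was not counted. On placebo they were between 1781 and 2330 CPM in Fancd2-/- and between 1196 and 1539 CPM in wild-type libraries. On oxymetholone they were between 1857 and 2054 CPM in Fancd2-/- and between 1676 and 1713 CPM in wild-type libraries. The part of these levels in the Fancb values was not tested.

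Fanca and Fancg form a subcomplex of the core together with FAAP20, a ubiquitin-binding partner of FANCA. Fanca (chr8:125792144-125842476, 43 exons) ranged from 14.2 to 24.5 CPM over the 6 Fancd2-/- KSL libraries with a median of 18.7 CPM, and from 14.8 to 23.1 CPM with a median of 19.5 CPM over the 6 wild-type ones. Fancg (chr4:43015209-43023173, 14 exons) ranged from 15.7 to 33.7 CPM in Fancd2-/- and from 17.6 to 30.3 CPM in wild-type KSL cells. Neither gene separated the genotypes. Their log2 differences over both diets were 0.02 (-0.32 to 0.35) for Fanca and -0.16 (-0.56 to 0.25) for Fancg. Fancg had the largest coefficient of variation of the members among Fancd2-/- KSL libraries, 32.0%. Among wild-type KSL libraries it was 20.02%, beside 20.11% for Fanca. Its 3 highest values were in the 3 deepest libraries (113 to 121 M reads), namely oxymetholone-fed Fancd2-/- replicate 3 at 33.7 CPM, oxymetholone-fed wild-type replicate 2 at 30.3 CPM and placebo-fed wild-type replicate 2 at 29.2 CPM. The part of depth in these values was not tested.

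Fancl, the ubiquitin ligase subunit (chr11:26287084-26371876, 14 exons), stood at 41.2, 37.0 and 38.1 CPM in placebo-fed and at 44.1, 39.9 and 26.4 CPM in oxymetholone-fed Fancd2-/- KSL cells. In wild-type cells placebo gave 33.0, 33.9 and 30.3 CPM and oxymetholone 38.9, 33.7 and 33.7 CPM. On placebo the log2 difference between genotypes was 0.29 (-0.06 to 0.65), with an adjusted p of 0.337 by edgeR. On oxymetholone the deep library of the knockout, replicate 3, had the lowest Fancl of all 12, and the difference was 0.06 (-0.30 to 0.41). Whole marrow had 55.4 CPM in both genotypes, a ratio of 1.001 (0.961 to 1.04).

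Fancc, Fance and Fancf make up the arm of the core complex that contacts FANCD2. Fancc (chr13:63412847-63533053, 15 exons) ranged from 16.8 to 22.5 CPM in the 6 Fancd2-/- and from 13.1 to 18.9 CPM in the 6 wild-type KSL libraries. Fance (chr17:28450475-28463519, 10 exons), which binds FANCD2 directly, ranged from 30.2 to 38.8 CPM in Fancd2-/- and from 33.2 to 42.1 CPM in wild-type libraries. Fancf (chr7:59115949-59117637), an adaptor encoded by a single exon, ranged from 11.1 to 15.3 and from 11.3 to 14.5 CPM. All 3 genes overlapped between genotypes, with log2 differences over both diets of 0.17 (-0.07 to 0.41), -0.16 (-0.38 to 0.07) and 0.07 (-0.17 to 0.32). In whole marrow the Fance ratio of Fancd2-/- to wild-type was 0.890 (0.842 to 0.941), the furthest from 1 of any member but Fancd2, and the other 8 ratios lay between 0.936 and 1.04. With 1 library of each genotype these intervals hold counting error only.

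Fancm (chr12:66176593-66233045, 23 exons) has the longest transcript of the 10, at 7775 bases. It was the one member that stood higher on oxymetholone in all 6 pairs of KSL libraries, each pair being an oxymetholone and a placebo library sorted with 1 cytometer setting. In Fancd2-/- KSL cells Fancm was at 12.4, 12.97 and 14.7 CPM on oxymetholone and at 11.4, 9.82 and 8.0025 CPM on placebo. In wild-type KSL cells it was at 11.8, 12.8 and 12.8 CPM on oxymetholone and at 10.2, 11.6 and 9.68 CPM on placebo. Of the 11688 genes with a mean of at least 1 CPM, 1.34% were higher on oxymetholone in 6 of 6 pairs. The paired log2 difference was 0.46 ± 0.16 in Fancd2-/- cells (95% interval 0.12 to 0.81, adjusted p = 0.688, edgeR) and 0.27 ± 0.16 in wild-type cells (-0.07 to 0.61, adjusted p = 0.999). The mean of both, a comparison added after the values were seen, was 0.37 (0.13 to 0.61) with an adjusted p of 0.868 (edgeR). None of these passed the threshold.

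Placebo-fed Fancd2-/- replicate 3, which had the lowest Fancm of all libraries, was also low in long transcripts as a whole. Its deviation from the mean of the 12 KSL libraries fell by 0.19 on the log2 scale per doubling of transcript length, where the other 11 libraries had slopes between -0.04 and 0.10. Without its pair the Fancm difference in Fancd2-/- cells was 0.30, and with the length trend removed it was 0.28.

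No member was called with oxymetholone in any comparison. The count was 0 of 10 in Fancd2-/- KSL cells, 0 of 10 in wild-type KSL cells, 0 of 10 for the mean of both and 0 of 10 for the difference between genotypes in the response, and each of these edgeR tests called 0% of 13259 genes. At an unadjusted p under 0.05 the counts were 1 (Fancm), 0, 1 (Fancm) and 0 members. Among all 13259 genes they were 903, 357, 720 and 457. DESeq2 and limma voom called 0 members in these comparisons. The interval of the oxymetholone effect was within 0.63 of 0 on the log2 scale for the 9 other members in both genotypes. Fancg had the widest one, from -0.42 to 0.61 in Fancd2-/- cells. Its pair differences there were -0.36, -0.45 and 1.10, and the third pair joined the deep library to one of 32.1 M reads.

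**Figure D3:**
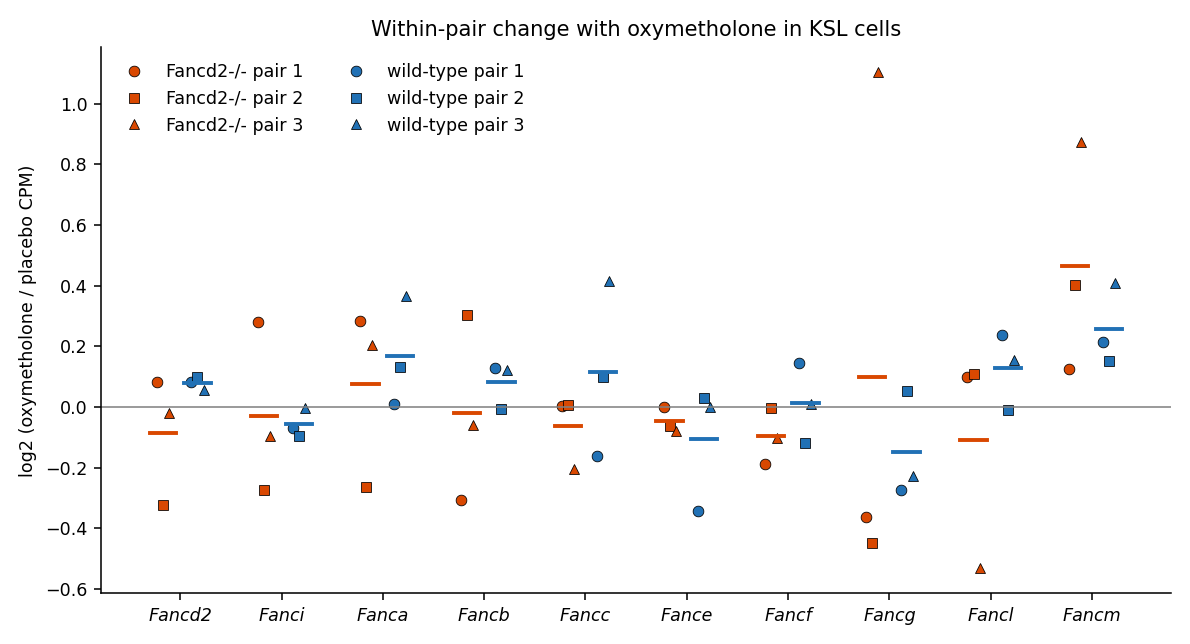
Log2 ratio of oxymetholone to placebo CPM in each pair of KSL libraries, 3 pairs per genotype, with a bar at the mean of each genotype. Fancm is above 0 in all 6 pairs, from 0.12 to 0.87, and Fancg of the third Fancd2-/- pair lies at 1.10.

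Wild-type erythroblasts gave tighter values and no change with oxymetholone that passed the test. Again 0 of 10 members were called, as were 0% of 9694 genes. At an unadjusted p under 0.05 edgeR had 0 members, beside 123 of the 9694 genes. DESeq2 and limma voom called 0 members. Fance came nearest, at 24.7, 23.2 and 23.9 CPM on oxymetholone and at 20.5, 20.8 and 20.2 CPM on placebo. Its log2 difference of 0.20 (-0.01 to 0.41) had an adjusted p of 0.9996 by edgeR. The intervals of the other 9 members stayed within 0.34 of 0. For Fancd2 the interval was -0.05 to 0.21.

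Between cell types the differences were far larger than between genotypes or diets. Erythroblasts in this window divide rapidly, and the 10 genes were set against KSL cells of wild-type mice on the same diet. With TMM scaling 9 of 10 members were called higher and 1, Fance, lower in erythroblasts on each diet. This has to be read against the background, since 91.0% of 12538 genes on placebo and 91.5% of 12518 genes on oxymetholone were called in one direction or the other. Called higher were 37.2% on placebo and 37.5% on oxymetholone, and called lower 53.7% and 53.9%. All 6 erythroblast libraries were above all 6 wild-type KSL libraries for 9 members and below for Fance, where 37.9% and 51.3% of 11642 genes separated in these directions. The members' median log2 difference was 1.79 on placebo and 1.86 on oxymetholone, beside -0.67 and -0.65 for all genes.

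Scaling sets where 0 lies in this comparison. The 10 most abundant genes took between 14.3% and 15.5% of erythroblast reads and between 3.99% and 4.71% of KSL reads, and TMM factors were between 0.524 and 0.569 in erythroblasts and between 1.34 and 1.46 in KSL cells. Scaling by library totals instead, a choice added after the data were seen, moved the median of all genes by -1.41 on placebo and -1.42 on oxymetholone. Under it 6 members were called higher and 2 lower on placebo, and 6 higher and 3 lower on oxymetholone. Of all genes 19.0% were then called higher on each diet, and 73.8% (placebo) and 74.5% (oxymetholone) lower. For the members, differences are therefore also given relative to the median gene, which a change of scaling factor leaves as they are. Cell cycle genes moved with these groups as well: the 20 S phase genes summed to between 21145 and 22675 CPM in erythroblasts and to between 2834 and 3313 CPM in wild-type KSL cells, and 20 of 20 mitosis genes were called higher on each diet. Their part in the members' values was not tested.

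Fancd2 rose most. Its log2 difference was 3.78 ± 0.12 on placebo and 3.77 ± 0.11 on oxymetholone (both called by edgeR), 4.45 and 4.42 above the median gene, and its mean was 13.2 times that of wild-type KSL cells with TMM scaling and 5.07 times with library totals. Fanci rose by 1.88 ± 0.11 and 2.01 ± 0.09, 2.55 and 2.66 above the median gene. The substrate genes of the pathway were thus both higher in erythroblasts, under each scaling tried.

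Fancm came next, with 109, 115 and 120 CPM in erythroblasts of placebo-fed mice and 114, 117 and 123 CPM in those of oxymetholone-fed mice. Its log2 difference was 3.50 ± 0.12 and 3.27 ± 0.10, 4.16 and 3.92 above the median gene, and the ratio of means was 10.1 with TMM scaling and 3.91 with library totals. Fancm went from the lowest place per kb of transcript in wild-type KSL cells, at a median of 1.503 CPM per kb, to 14.9 CPM per kb, where its range overlapped that of Fanca.

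The 7 core complex genes did not move alike. Fancl rose by 2.23 ± 0.11 on placebo and 2.10 ± 0.09 on oxymetholone, Fanca by 2.04 ± 0.14 and 1.86 ± 0.16, and Fancg by 1.70 ± 0.13 and 1.87 ± 0.18, and these 3 stayed called higher with library totals. Fancc rose by 1.69 ± 0.14 and 1.55 ± 0.11 with TMM scaling, and its call was lost with library totals (0.28 and 0.13 on the log2 scale). Fancb at 1.19 ± 0.16 and 1.025 ± 0.14 and Fancf at 0.64 ± 0.15 and 0.66 ± 0.15 were called higher with TMM scaling but turned to -0.21 and -0.39 (Fancb) and -0.77 and -0.76 (Fancf) with library totals. Relative to the median gene on placebo and oxymetholone, Fancl stood 2.90 and 2.75 higher, Fanca 2.71 and 2.51, Fancg 2.37 and 2.52, Fancc 2.35 and 2.20, Fancb 1.86 and 1.68 and Fancf 1.30 and 1.31.

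Fance was the exception. It was at 42.1, 41.1 and 33.7 CPM in placebo-fed wild-type KSL cells and at 20.5, 20.8 and 20.2 CPM in placebo-fed erythroblasts. On oxymetholone it was at 33.2, 42.0 and 33.7 CPM in KSL cells and at 24.7, 23.2 and 23.9 CPM in erythroblasts. The log2 difference was -0.87 ± 0.13 (adjusted p = 1.7e-05) and -0.57 ± 0.13 (adjusted p = 0.00094, edgeR), lower under each scaling tried. Relative to the median gene it was -0.20 on placebo and 0.08 on oxymetholone, so Fance moved like the typical gene while the 9 others stood above it.

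**Figure D4:**
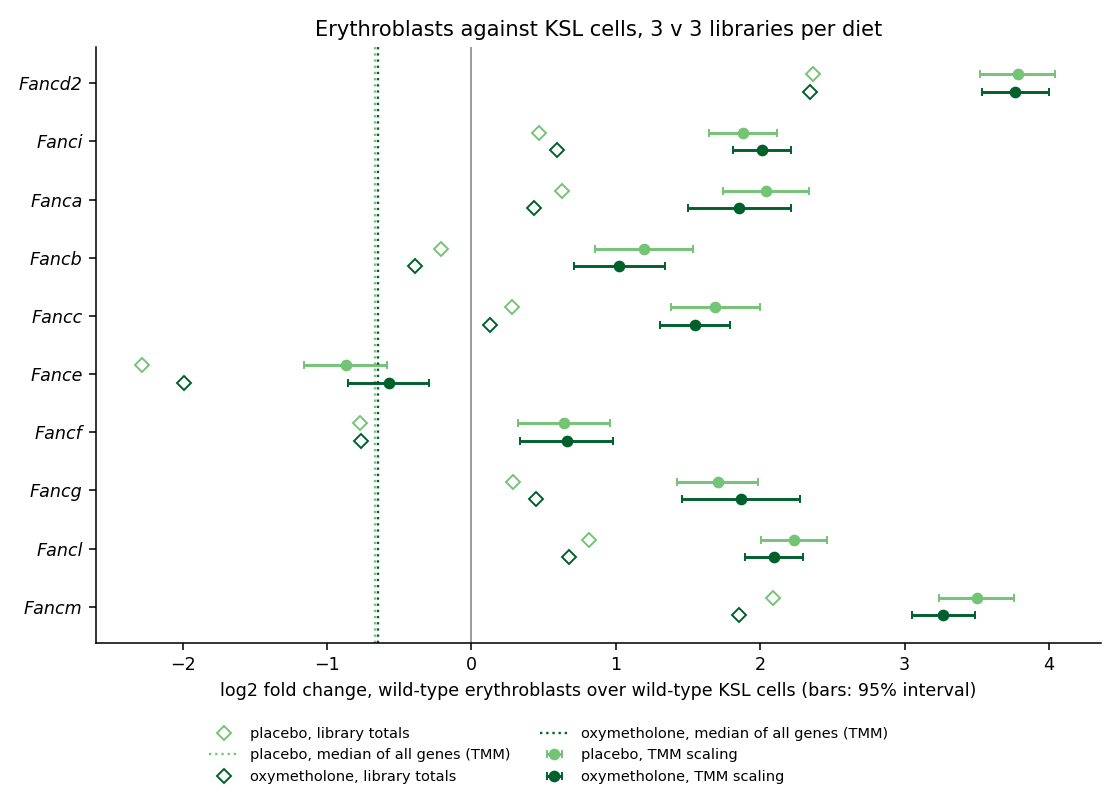
Log2 fold change of wild-type erythroblasts over wild-type KSL cells on each diet, with TMM scaling (filled, 95% interval) and library totals (open), and the median of all genes as dotted lines. Fancd2 and Fancm lie at 3.27 or more with TMM scaling, where Fance alone lies below 0. With library totals Fancb and Fancf lie below 0 as well.

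The makeup of the 10-gene set can be stated without any scaling, as the share of each gene in the summed CPM per kb of the 10. Fancd2 made up a median of 3.13% in wild-type KSL cells (2.89% to 4.00% over 6 libraries), 1.24% in Fancd2-/- KSL cells and 12.998% in erythroblasts (12.5% to 13.5%). Fance went the other way, from 21.1% (18.8% to 23.7%) in wild-type KSL cells to 3.67% (3.34% to 3.98%) in erythroblasts. Fancf fell from 7.89% to 3.66% and Fancb from 2.89% to 1.83%, while Fancm went from 1.63% to 4.86%, and none of these ranges overlapped. Lack of overlap was common here: in CPM, 37.9% of 11642 genes were higher and 51.3% lower in all 6 erythroblast libraries. How often shares within other gene sets separate was not counted. Fanca and Fancg kept overlapping ranges, with medians of 4.85% and 5.34% for Fanca and of 10.2% and 9.69% for Fancg. Whole wild-type marrow lay between the medians of wild-type KSL cells and erythroblasts for Fancd2 (5.40%), Fance (12.8%) and Fancm (2.003%). It did so too for Fancb (2.28%), Fancf (5.55%) and Fancl (38.1%). Its Fanca share of 8.57% was above every KSL and erythroblast library, and its Fancc share of 4.36% was below every one. The Fanci (12.4%) and Fancg (8.59%) shares of wild-type marrow also lay outside both medians.

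**Figure D5:**
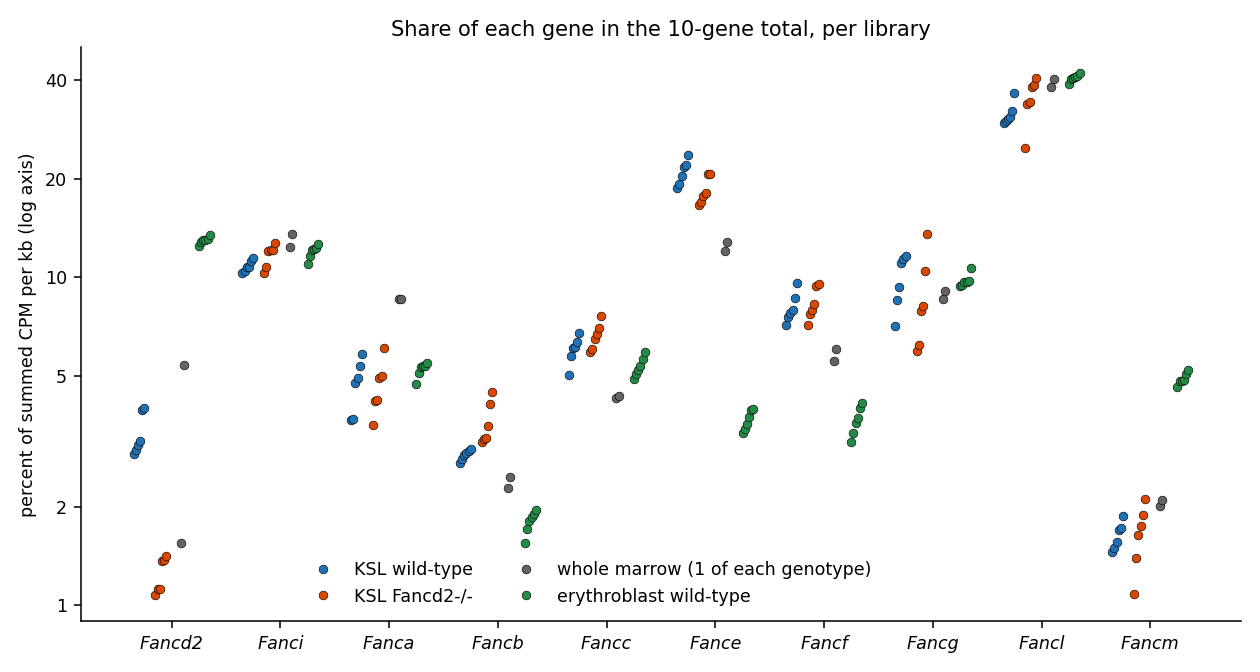
Share of each gene in the summed CPM per kb of the 10 genes (percent, log axis), with 1 point per library, sorted by value within a group. Fancd2 and Fancm are higher and Fance, Fancf and Fancb lower in the 6 erythroblast libraries than in all KSL libraries.

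Fancl was the most abundant member per kb in every population. Its median was 28.4 CPM per kb in wild-type KSL cells, 124 in erythroblasts and 46.6 in wild-type marrow. In wild-type KSL cells Fance followed at 18.9 CPM per kb, and neither gene overlapped its neighbour in the order. Fanci at 9.61, Fancg at 8.97 and Fancf at 7.14 came next with overlapping ranges. Fancc at 5.56, Fanca at 4.35, Fancd2 at 2.95 and Fancb at 2.61 followed, each overlapping the next, and Fancm at 1.503 lay apart below them. In erythroblasts the order after Fancl was Fancd2, Fanci, Fancg, Fancc, Fanca, Fancm, Fancf, Fance and Fancb, with overlap between Fancd2 and Fanci, Fanci and Fancg, among Fancc, Fanca and Fancm, and between Fancf and Fance. Fancl and Vrk2 on the opposite strand share 8.17% of the Fancl transcript, and Fanca shares 12.3% with Zfp276 and Fancf 15.0% with Gas2.

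The genes most like each member over the 13 wild-type libraries were found by the root mean square difference of centred log2 CPM among 10159 genes of at least 5 CPM. For Fancd2 these were Ddi2 (0.09), Terf1 (0.09) and Btaf1 (0.09), and for Fancm Whsc1 (0.06), Cbx5 (0.10) and Hnrnpul2 (0.11). Fancl was nearest to Nfyb (0.06), Psmd11 (0.06) and Cenpp (0.08). Fance was nearest to Vps72 (0.10), Ddx49 (0.10) and Tbc1d22a (0.11). Among members the closest were Fanci and Fancl (0.15), and Fance was far from all, with Fancf nearest at 0.67. Many other genes were nearer: Fancl had rank 130 for Fanci, Fanci rank 121 for Fancl and Fancf rank 3379 for Fance. These 13 points fall into 3 cell populations that differ in depth and scaling, so the distances mostly describe the step from KSL cells to erythroblasts.

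Of the 5 partners of the core complex, 1 was called higher and 3 lower in erythroblasts on placebo with TMM scaling. The shares of all genes were 37.2% and 53.7%. With library totals 0 partners were called higher and 4 lower, beside 19.0% and 73.8% of all genes. With TMM scaling the partners' median log2 difference of -0.83 was near that of all genes (-0.67), and no test set them against the subunits. Faap20, the partner of FANCA, fell by 4.81 ± 0.18 on the log2 scale (adjusted p = 7.9e-13, edgeR), from a mean of 55.0 CPM in wild-type KSL cells to 2.10 CPM. Faap100, which binds FANCB and FANCL, fell by 1.15 ± 0.13 and Cenpx, a histone-fold partner of FANCM, by 0.83 ± 0.14. Faap24, the other partner of FANCM, rose by 1.40 ± 0.12 with TMM scaling and was at -0.01 with library totals. On oxymetholone 2 partners were called higher and 3 lower with TMM scaling, beside 37.5% and 53.9% of all genes.

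The genes that add, remove or read ubiquitin were called higher in 7 of 7 cases on each diet with TMM scaling. Among all genes 37.2% (placebo) and 37.5% (oxymetholone) were. With library totals 5 of 7 on placebo and 6 of 7 on oxymetholone were called higher, with 1 lower. The shares of all genes called higher and lower were then 19.0% and 73.8% on placebo and 19.0% and 74.5% on oxymetholone. Rfwd3, a ubiquitin ligase of replication repair, rose by 3.46 ± 0.10, Rnf168 by 2.86 ± 0.12, and Usp1, which takes ubiquitin off FANCD2, by 1.997 ± 0.12 on placebo. Ube2t, the conjugating enzyme that works with FANCL, rose by 1.95 ± 0.12.

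Of the 16 homologous recombination genes 14 were called higher and 1 lower on each diet with TMM scaling. Beside these were 37.2% and 53.7% of all genes on placebo and 37.5% and 53.9% on oxymetholone. With library totals 10 were called higher and 5 lower on placebo, beside 19.0% and 73.8% of all genes. Brca1 rose by 4.59 ± 0.13, Bard1, its partner, by 3.84 ± 0.15 and Rad51c by 3.76 ± 0.15. Rad51d fell by 2.73 ± 0.14. Of the 14 nucleases and translesion polymerases 9 were called higher and 3 lower on placebo (7 and 5 with library totals). The same shares of all genes on placebo stand beside these counts. Polh, a translesion polymerase, rose by 4.26 ± 0.11 and Slx4, a nuclease scaffold, by 2.48 ± 0.10, while Ercc1 and Ercc4, which encode 1 nuclease, fell by 2.09 ± 0.17 and 1.35 ± 0.13.

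Of the 12 fork checkpoint genes 8 were called higher and 3 lower on placebo with TMM scaling, beside 37.2% and 53.7% of all genes. With library totals 3 were called higher and 6 lower, beside 19.0% and 73.8%, so the direction of this list depended on the scaling. Clspn, which brings CHK1 to ATR, rose by 4.35 ± 0.17, Rpa1, a subunit of the single-strand binding protein, by 3.08 ± 0.11 and Topbp1, an activator of ATR, by 2.25 ± 0.10. Blm, the helicase that FANCM links to the core complex, rose by 4.07 ± 0.13. All 4 genes of its complex were called higher with TMM scaling, beside 37.2% of all genes on placebo. With library totals 1 was called higher and 1 lower, beside 19.0% and 73.8%. Over the 58 pathway genes 43 were called higher and 10 lower on placebo, beside 37.2% and 53.7% of all genes, and 26 and 22 with library totals, beside 19.0% and 73.8%.

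Between genotypes in KSL cells few pathway genes were called. On placebo and on oxymetholone 0 of 58 were, with 16 and 1 at an unadjusted p under 0.05 by edgeR, beside 2598 and 738 of all 13259 genes. Over both diets 2 of 58 were called, both higher in Fancd2-/- cells, among them Brca1 at 0.34 ± 0.08 (adjusted p = 0.041, edgeR). This share is near the 3.71% of all genes, and with counts summed per pair 0 of 58 were called, Brca1 having an adjusted p of 0.185. The median of the 58 was 0.12 beside -0.01 for all genes. Among the partners that fell short, Ube2t was at 0.38 ± 0.11 (adjusted p = 0.0616) and the nuclease gene Eme1 at 0.39 ± 0.10 (adjusted p = 0.0516). With median-of-ratios scaling 3 of the 58 were called higher. The part of the S phase and mitosis levels given with Fancb was not tested here. With oxymetholone edgeR called 0 of 58 in Fancd2-/- KSL cells, wild-type KSL cells and erythroblasts. At an unadjusted p under 0.05 there were 4, 3 and 0. Among all genes 903 and 357 of 13259 and, in erythroblasts, 123 of 9694 were under it.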

How the data were processed

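RNA-seq was measured in 20 libraries of mouse marrow cells. Per the labels' protocols, oligo(dT)-selected RNA was made into libraries with a TruSeq kit and sequenced as 51-base reads. Reads were mapped to build mm9 with Bowtie, and edgeR was used, per the submitters' processing notes; the sources used here give no versions, annotation, strand setting or treatment of multiply mapped reads. The authors deposited raw read counts per RefSeq transcript. They also deposited a matrix that from its values was scaled so that each library sums to between 19.999 and 20.001 M reads and rounded, treated here as a score and used only in 1 alternative.

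One row per symbol, that of the largest total, was kept. Of 147 genes in the lists, 9 were matched by RefSeq accession because the matrix uses older symbols. CPM was computed with TMM factors over all 20 libraries. CPM per kb used the summed exon length of a GENCODE vM1 transcript (build mm9) of the same symbol. The transcript whose ends were closest to those of the kept row was taken. Exon numbers and overlaps with other genes also came from GENCODE. Coordinates are those of the deposited matrix, counted from 1. Tests were edgeR 4.0.16 quasi-likelihood fits (R 4.3.3) with the filterByExpr low-count filter and Benjamini-Hochberg adjustment over all genes, called at an adjusted p under 0.05 and checked on simulated counts. Genotype comparisons used 4 group means over the 12 KSL libraries, with the libraries of a pair taken as independent, which can make the standard errors over both diets too small. Oxymetholone comparisons in KSL cells had the pair as a block, since the series' design ties each pair to 1 cytometer setting. Deviations from group means within a pair correlated at -0.06 to 0.26 over 13259 genes. Erythroblast comparisons used 6 libraries each. Alternatives were DESeq2 1.42.0, limma 3.58.1 (voom with quality weights, and the scaled matrix), median-of-ratios factors, counts summed per pair, no filter, summed transcript rows, a removed length trend, no block and each library or pair left out. The label of 1 Fancd2-/- placebo KSL library is spelled differently in the sample list and the matrix; it was assigned by its group and the design's pairing. Replicates are separate pools of mice or, for erythroblasts, separate mice. Named genes are all 10 members and, per list, the called genes of smallest p, up to 4 a comparison, or up to 2 where none was called; Ube2t and Rad51d, Ercc1, Ercc4 were named after their values were seen. The values of 1 called pathway gene are not reported here. The members and lists were chosen with earlier results of these data known.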

Additional observations from a re-analysis of the deposited data

How the results depend on the processing

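The number of members called was the same under every alternative run for the genotype comparisons on each diet (1 of 10), for oxymetholone in KSL cells and erythroblasts (0 of 10) and for the interaction (0 of 10), except that DESeq2 called 2 over both diets (Fancb added). Without the replicate block the 3 paired comparisons also called 0 members. Of 306 alternative values of the 23 called member results, 295 kept direction and call, among them all 144 that left out a library. Fancd2 without oxymetholone-fed Fancd2-/- replicate 2 came closest to losing its call between genotypes (adjusted p = 0.0499). The 8 that reversed were Fancb and Fancf in erythroblasts. On placebo they were -0.16 and -0.72 on the deposited scaled matrix and -0.21 and -0.77 with library totals. On oxymetholone they were -0.34 and -0.71, and -0.39 and -0.76. These follow from the scaling itself, as the shift of all genes shows. Of 1033 values that were called neither way, 99 changed sign, none larger than 0.38. Fancg with oxymetholone in Fancd2-/- cells moved between -0.38 and 0.37 when a pair was left out, and was negative without pair 3. Counts over all genes moved more than those of members: in placebo-fed KSL cells the genotype comparison called 170 genes by edgeR, 809 by DESeq2 and 1473 by limma voom, on oxymetholone 17, 86 and 46, and over both diets 492, 1121 and 2481, with 52 by edgeR when counts were summed per pair and between 140 and 991 when 1 library was left out. With oxymetholone in wild-type KSL cells the counts were 0, 4 and 254, for the mean of both genotypes 0, 13 and 1, and for the interaction 0, 1 and 0. Members with few reads are limited by counting: the smallest were 109 reads for Fancb in placebo-fed wild-type KSL replicate 3 and, for Fancd2, 128 reads in oxymetholone-fed Fancd2-/- KSL replicate 1.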

Other observations

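Fancc has 2 transcript rows in the matrix. The reads on the second row were between 0.455 and 0.578 times those on the first in the 12 KSL libraries, 0.485 and 0.515 times in whole marrow, and between 0.716 and 0.780 times in the 6 erythroblast libraries, so the ranges of KSL cells and erythroblasts did not overlap. The ratio uses reads of 1 gene within 1 library and does not depend on scaling. How often such a ratio separates KSL cells from erythroblasts among all genes with 2 rows was not counted. For Fancb, Fance and Fancg, which also have 2 rows, the ranges overlapped, with medians of 0.819 and 0.819 for Fancb, 0.934 and 0.947 for Fance, and 0.990 and 0.990 for Fancg in KSL cells and erythroblasts. How reads shared by both rows were counted was not given in the sources used here.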
